A study of Homo sapiens with 12 samples.

Results

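The mucin genes examined here are MUC1, the target of the inducible hairpin in these cells, and the family members MUC2, MUC4, MUC5AC, MUC5B, MUC6, MUC12, MUC13, MUC16 and MUC20. They were found by gene symbol in the count tables of QGP-1 and BON-1, established human cell lines of pancreatic neuroendocrine tumor (pNET) origin, and 10 of 10 had a row among the 28008 genes of each table. Cells of all 4 groups carried tet-MUC1shRNA, a puromycin-selected lentiviral hairpin against the MUC1 transcript that doxycycline (DOX) switches on. QGP-1 cells, grown in RPMI medium, and BON-1 cells, grown in DMEM/F-12 medium, were treated for 7 days with 0.1% DMSO as the vehicle or with 500 ng/mL DOX, and RNA-seq was performed on biologic triplicates, which gave 3 libraries in each group and 12 in all. Whether the vector-bearing cells were pools or clones is not given in the sources used here. Libraries with a control hairpin were not analysed here, so responses to the hairpin and to DOX itself cannot be told apart. The lines differed in medium and sequencing depth as well as in origin, and these cannot be told apart in a comparison of their levels.

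Mucins are large glycoproteins whose repeats, rich in serine and threonine, are coated with O-linked glycans. The membrane mucins (MUC1, MUC4, MUC12, MUC13, MUC16 and MUC20 here) cross the cell surface and can signal through their cytoplasmic tails, whereas the gel-forming mucins (MUC2, MUC5AC, MUC5B and MUC6) are secreted and polymerise into mucus. MUC1 is cleaved into an N-terminal subunit, which holds the repeats, and a transmembrane C-terminal subunit, MUC1-C. The gel-forming genes lie next to each other on chromosome 11, and goblet cells of the gut and airway are a well known source of some of them.

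QGP-1 libraries held 38224144 to 50525926 counts and BON-1 libraries 15981954 to 28484324. Mucin transcripts were scarce, and the 10 genes together took 0.00215% to 0.00243% of the counts of a QGP-1 library with vehicle and 0.0218% to 0.0228% of a BON-1 library with vehicle. Neuroendocrine markers (CHGA, CHGB, SYP, INSM1, ENO2, SCG2, SCG3, NCAM1 and NEUROD1) reached a mean of at least 1 CPM (counts scaled by library size) for 8 of 9 genes in each group, with summed levels of 4410 to 5128 CPM with vehicle and 5185 to 5864 CPM with DOX in QGP-1 libraries. In BON-1 libraries they summed to 11190 to 14600 CPM with vehicle and 9107 to 9456 CPM with DOX, without overlap. CHGA, a granule protein, went from a mean of 7875 to 2870 CPM there and fell by 1.46 on the log2 scale (adjusted p = 2.45e-11, edgeR). Of 9 markers of fibroblasts, endothelium and leukocytes, QGP-1 cells had 2 at that level and BON-1 cells 1. COL1A1, a fibroblast collagen, went from a mean of 2.55 to 1.14 CPM in QGP-1 cells (log2 fold change −1.16, adjusted p = 0.00727, edgeR). The marker of BON-1 cells was CD68, at a mean of 24.6 CPM with vehicle and 49.5 CPM with DOX, and the summed level of the 9 markers was 24.5 to 27.5 CPM with vehicle and 49.6 to 52.8 CPM with DOX. The part of these markers in the mucin results was not tested. In bulk RNA, fewer cells with a transcript and less transcript per cell cannot be told apart.

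MUC1 is a minus-strand gene of chromosome 1 (GRCh38, 155185824 to 155192916), where the annotated gene ENSG00000273088 overlaps it on the same strand. MUC13 lies on the minus strand of chromosome 3 (124905442 to 124953819), and on the same chromosome MUC20 (plus strand, 195720884 to 195741123) and MUC4 (minus strand, 195746765 to 195811973) are neighbours. MUC12 is on chromosome 7 (plus strand, 100969565 to 101018939) and MUC16 on chromosome 19 (minus strand, 8848844 to 9010390). MUC6 (minus strand, 1012823 to 1036718), MUC2 (plus strand, 1074875 to 1110511), MUC5AC (plus strand, 1157953 to 1201138) and MUC5B (plus strand, 1223066 to 1262172) share 249.3 kb of chromosome 11. MUC12 overlaps the antisense gene MUC12-AS1, MUC20 overlaps MUC20-OT1, and MUC5B overlaps MUC5B-AS1 and MIR6744. How the counting treated strand and reads with several matches is not given in the sources used here, so reads of these overlapping genes, of the tandem repeats and of the copies of MUC20 elsewhere on chromosome 3 are uncertain.

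Promoter sequence was available for 6 of the 10 genes (MUC1, MUC2, MUC4, MUC12, MUC13 and MUC16) from RefSeq on GRCh38.p14. The 250 bases before the annotated start are printed 5′ to 3′ on the gene's strand for the most abundant members, MUC1 (chr1:155192916-155193165, minus strand) and MUC13 (chr3:124934752-124935001, minus strand). MUC2 (chr11:1074624-1074873, plus strand) is also printed, as the only chromosome 11 member with a sequence available. The RefSeq start of MUC13 lies inside the gene span given above. Capitals mark matches, on either strand, to 5 motifs: the GC box GGGCGG, the TATA box TATAAA, the E-box CACGTG bound by MYC, the STAT motif TTCNNNGAA and the CDX motif TTTATG.
MUC1: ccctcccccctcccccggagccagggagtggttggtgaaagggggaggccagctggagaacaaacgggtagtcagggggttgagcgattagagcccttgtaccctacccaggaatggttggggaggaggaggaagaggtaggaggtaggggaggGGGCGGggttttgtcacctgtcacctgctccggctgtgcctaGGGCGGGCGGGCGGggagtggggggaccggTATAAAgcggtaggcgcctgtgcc
MUC13: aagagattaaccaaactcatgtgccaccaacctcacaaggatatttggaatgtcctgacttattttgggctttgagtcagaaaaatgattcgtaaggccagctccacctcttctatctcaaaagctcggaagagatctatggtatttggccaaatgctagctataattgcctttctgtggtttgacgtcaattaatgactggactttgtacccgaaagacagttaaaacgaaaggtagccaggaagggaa
MUC2: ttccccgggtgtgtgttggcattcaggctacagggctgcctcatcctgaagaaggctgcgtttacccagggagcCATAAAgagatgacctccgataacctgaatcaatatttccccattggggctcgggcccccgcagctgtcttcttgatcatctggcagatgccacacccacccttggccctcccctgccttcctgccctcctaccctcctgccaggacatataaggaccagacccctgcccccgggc
The MUC1 promoter held 4 GC boxes, beginning 96, 54, 50 and 46 bases before the start with the last 3 overlapping each other, and a TATA box 24 bases before it. None of the 5 motifs was found in the MUC13 window, and the MUC2 window held 1 CDX match on the minus strand, 176 bases before the start. Of the 27305 promoters of the same length in the table, 42.3% held a GC box, 11.1% a TATA box, 6.49% the E-box, 6.78% the STAT motif and 10.0% the CDX motif. These matches are descriptions of the letters and were not tested as binding sites.

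Silencing of the target was seen in each library with DOX. MUC1 levels, in CPM scaled across the 12 libraries by TMM, were 7.37, 5.95 and 5.80 CPM in QGP-1 cells with vehicle and 0.722, 1.07 and 0.762 CPM with DOX. The BON-1 libraries had 20.2, 20.1 and 15.0 CPM with vehicle and 1.42, 2.60 and 3.93 CPM with DOX. All DOX libraries lay below all vehicle libraries of their line, and the BON-1 libraries with DOX were more spread than those of QGP-1. The MUC1 transcript left with DOX was 13.3% of the vehicle level in QGP-1 cells (95% interval 9.52% to 18.6%, log2 fold change −2.91, standard error 0.23, adjusted p = 8.24e-07, edgeR's quasi-likelihood test). In BON-1 cells 14.5% was left (95% interval 10.6% to 19.7%, log2 fold change −2.79, standard error 0.22, adjusted p = 6.51e-11, same test). The difference between the responses was 0.13 on the log2 scale, with a 95% interval of −0.58 to 0.84 (adjusted p = 0.854, interaction of line and DOX in edgeR). That interval allows the fraction of MUC1 left in BON-1 cells to lie anywhere from 66.9% to 179.4% of the fraction left in QGP-1 cells. MUC1 was more abundant in BON-1 than in QGP-1 cells with vehicle, at 2.91-fold (log2 difference 1.54, standard error 0.21, adjusted p = 4.32e-07, edgeR), and with DOX the BON-1 libraries still held a mean of 2.65 ± 1.25 CPM (SD, n = 3) against 0.850 ± 0.188 CPM (SD, n = 3) in QGP-1 cells. By qRT-PCR the paper reports comparable MUC1-C transcript levels in the lines, from cells for which it names no vector or treatment.

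**Figure D1:**
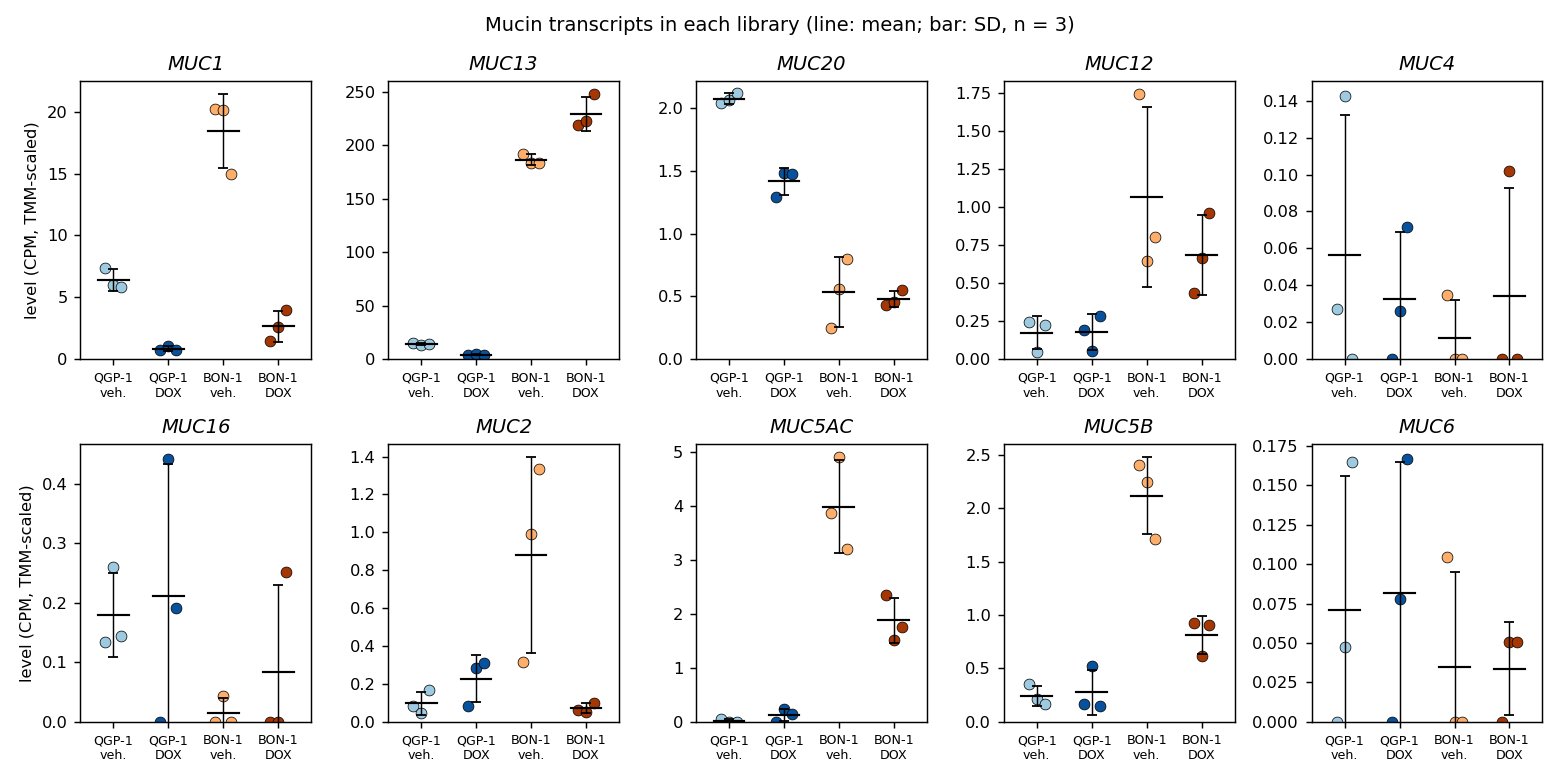
Level of each mucin gene in CPM (linear axis from 0, a different scale in each panel) in the 3 libraries of each group, with points for libraries, a line for the mean and a bar for the SD (n = 3). MUC1 lay lower with DOX in both lines, MUC13 lower with DOX in QGP-1 and higher in BON-1 cells, and MUC4, MUC6 and MUC16 stayed below 0.5 CPM in every library.

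MUC13, a membrane mucin of the gastrointestinal epithelium that carries EGF-like domains, moved in opposite directions in the lines. In QGP-1 cells it measured 14.6, 13.2 and 13.7 CPM with vehicle and 4.20, 4.40 and 4.05 CPM with DOX. In BON-1 cells it measured 192.3, 183.6 and 183.5 CPM with vehicle and 218.9, 222.6 and 248.1 CPM with DOX. The groups did not overlap in either line, with the DOX libraries below in QGP-1 and above in BON-1. MUC13 fell to 30.5% of the vehicle level in QGP-1 cells (95% interval 25.3% to 36.7%, log2 fold change −1.72, standard error 0.13, adjusted p = 4.84e-07, edgeR). In BON-1 cells it rose 1.22-fold on the counts (95% interval of the level 110.1% to 136.1% of vehicle, log2 fold change 0.29, standard error 0.07, adjusted p = 0.00293, edgeR), but the sign turned on the deposited TPM values, at −0.07 on log2(TPM + 1), where the median of all genes was itself −0.31. The responses differed by 2.02 on the log2 scale (95% interval 1.77 to 2.26, adjusted p = 3.84e-11, interaction in edgeR), and the call was made in 12 of 12 fits that each left out 1 library. With vehicle MUC13 was 13.5-fold higher in BON-1 than in QGP-1 cells (log2 difference 3.75, standard error 0.08, adjusted p = 2.63e-22, edgeR).

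MUC20, a membrane mucin known to bind the receptor MET, was the other member measured well enough for a test in both lines. QGP-1 libraries had 2.04, 2.06 and 2.12 CPM with vehicle and 1.30, 1.48 and 1.48 CPM with DOX, and the groups did not overlap. The difference did not pass the test after adjustment (68.3% of vehicle, 95% interval 46.7% to 99.7%, log2 fold change −0.55, standard error 0.26, adjusted p = 0.110, edgeR). In BON-1 cells MUC20 had 7 to 15 counts in each library and its groups overlapped (log2 fold change −0.10, standard error 0.60, adjusted p = 0.911). It was the only member tested that was lower in BON-1 than in QGP-1 cells with vehicle, at 24.9% of the QGP-1 level (log2 difference −2.01, standard error 0.41, adjusted p = 0.000107, edgeR). The difference between the responses of the lines was 0.46 (95% interval −0.78 to 1.71, adjusted p = 0.660).

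MUC12, a membrane mucin best known from the colon, had 2 to 12 counts in each QGP-1 library and 7 to 50 in each BON-1 library. In BON-1 cells it measured 1.74, 0.647 and 0.801 CPM with vehicle and 0.434, 0.662 and 0.958 CPM with DOX. The highest vehicle library stood above the rest and the groups overlapped (log2 fold change −0.65, standard error 0.50, adjusted p = 0.330, edgeR). Its level with vehicle was 6.15-fold higher in BON-1 than in QGP-1 cells (log2 difference 2.62, standard error 0.69, adjusted p = 0.00146, edgeR). MUC12 entered that fit through its BON-1 libraries, so the direction is not independent of the filter. The remaining membrane mucins were near the floor. MUC16, which carries the CA125 epitope, had 5 to 11 counts in QGP-1 libraries with vehicle and 0 to 17 with DOX, and in BON-1 cells 0 to 1 count with vehicle and 0 to 5 with DOX. MUC4, a partner of the receptor ERBB2, had 0 to 6 counts in every library of either line. These genes passed no filter and were not tested.

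The gel-forming mucins were all but absent from QGP-1 cells, and MUC5AC, MUC5B and MUC2 were measurable in BON-1 cells with vehicle. MUC5AC, the surface mucin of the stomach and airway, had 3.87, 4.92 and 3.20 CPM in BON-1 cells with vehicle (111, 114 and 60 counts) and 2.35, 1.53 and 1.76 CPM with DOX (38, 30 and 35 counts). Every DOX library lay below every vehicle library, and MUC5AC fell to 46.5% of the vehicle level (95% interval 30.8% to 70.0%, log2 fold change −1.11, standard error 0.29, adjusted p = 0.00349, edgeR). The call was lost when both lines shared 1 fit, at −1.09 and an adjusted p of 0.0837. In QGP-1 cells the counts were 2, 0 and 0 with vehicle and 0, 9 and 6 with DOX, which the filter on low counts left out of the test within that line. With vehicle the ratio of the summed counts of BON-1 to QGP-1 cells, scaled by library size, was 257.9, with an exact 95% counting interval of 70.7 to 2140 that covers counting error only.

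MUC5B, the main mucin of airway submucosal glands and saliva, followed the same direction in BON-1 cells. It measured 2.40, 2.24 and 1.71 CPM with vehicle (69, 52 and 32 counts) and 0.929, 0.611 and 0.907 CPM with DOX (15, 12 and 18 counts), with no overlap. MUC5B fell to 38.1% of the vehicle level (95% interval 21.7% to 67.0%, log2 fold change −1.39, standard error 0.40, adjusted p = 0.00701, edgeR). In QGP-1 cells it had 8 to 13 counts with vehicle and 6 to 20 with DOX and was not tested in that line. With vehicle the BON-1 level was 8.77-fold that of QGP-1 cells (log2 difference 3.13, standard error 0.54, adjusted p = 1.34e-05, edgeR). MUC5B entered that fit through its BON-1 libraries, so the direction of this difference is not independent of the filter.

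MUC2, the main secreted mucin of the intestine, had 9, 23 and 25 counts in BON-1 cells with vehicle and 1, 1 and 2 with DOX. The groups did not overlap, and the ratio of vehicle to DOX from the summed counts, scaled by library size, was 11.2 (exact 95% counting interval 4.15 to 42.6, counting error only). In BON-1 cells alone the filter on low counts removed it. It passed the filter of the 12 libraries only through the BON-1 libraries with vehicle, its highest group. Calls for MUC2 from that fit are therefore not independent of the filter. In the fit of all 12 libraries its BON-1 response was −3.52 on the log2 scale (standard error 0.91, adjusted p = 0.00491, edgeR), and in QGP-1 cells, with 3, 2 and 8 counts against 4, 11 and 13, it was 1.14 (standard error 0.79, adjusted p = 0.300). Its level with vehicle was 8.35-fold higher in BON-1 than in QGP-1 cells (adjusted p = 0.000873, edgeR), again from the few counts given. MUC6, the mucin of gastric glands, had 0 to 8 counts in each library and was not tested.

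**Figure D2:**
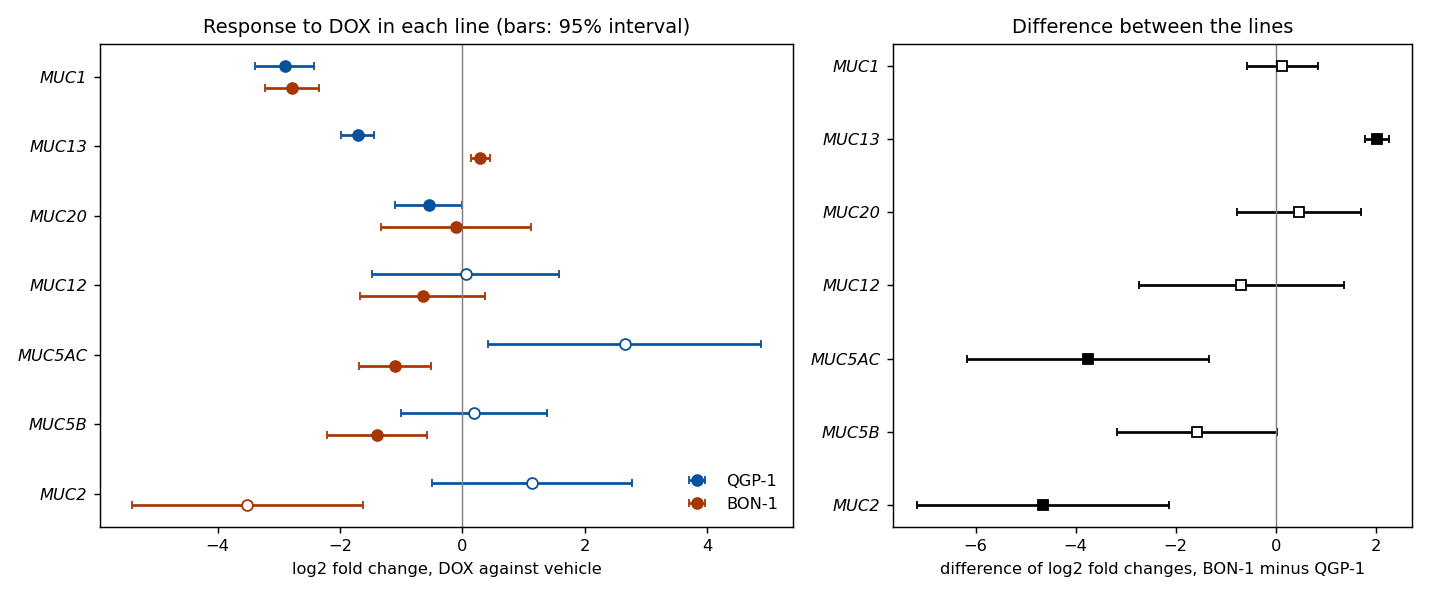
Left, log2 fold change of DOX against vehicle for the mucin genes that could be tested, in QGP-1 and BON-1 cells, where filled points come from the fit of that line, open points from the fit of all 12 libraries, and bars are 95% intervals. Right, the BON-1 minus QGP-1 difference of these values, filled where the adjusted p was below 0.05: the interval of MUC13 lay above 0, those of MUC2 and MUC5AC lay below 0, and that of MUC1 held 0.

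Counted over the family, 3 of the 10 genes passed the filter in QGP-1 cells, of which 2 (MUC1 and MUC13) were lower with DOX and 0 higher at an adjusted p below 0.05; over all 15089 genes tested, 17.7% were lower and 17.3% higher. In BON-1 cells 6 passed, of which 3 (MUC1, MUC5AC and MUC5B) were lower and 1 (MUC13) higher, and 18.3% of all 14625 genes tested were lower and 17.0% higher. MUC1 is the target of the hairpin, so its fall belongs to the design in both counts. The median log2 fold change of the members tested was −1.72 in QGP-1 and −0.88 in BON-1 cells, beside −0.01 over all genes in each. With 3 members tested in QGP-1 cells, that median is the value of MUC13, and both medians include MUC1. The share of genes called lower or higher among all genes tested also stands behind each list described further on, whose median log2 fold changes ran from −0.73 to 0.19 in QGP-1 and from −0.16 to 0.12 in BON-1 cells. Of the 7 members in the fit of 12 libraries, 1 was lower and 6 were higher in BON-1 than in QGP-1 cells with vehicle, where 37.5% of all 16598 genes were lower and 37.5% higher. Of the 6, MUC2, MUC5AC, MUC5B and MUC12 did not pass the filter on their QGP-1 libraries and entered through BON-1 libraries. The direction of those genes is therefore not independent of the filter. The response to DOX differed between the lines for 3 of the 7, with MUC2 and MUC5AC more negative and MUC13 more positive in BON-1 cells, beside 7.92% and 8.80% of all genes. The smallest two-sided p that an exact permutation test allows for 3 against 3 libraries is 0.1, and these calls rest on the spread that edgeR shares across genes.

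Away from MUC13, the differences between the lines rested on few counts. For MUC2 the difference was −4.65 (95% interval −7.18 to −2.13, adjusted p = 0.0102, interaction in edgeR), from 57 and 4 summed counts in BON-1 cells and 13 and 28 in QGP-1 cells, and it was called in 12 of 12 fits that left out 1 library. MUC2 entered these fits through its highest group, BON-1 with vehicle, so the repeated call is not independent of the filter. For MUC5AC the difference was −3.75 (95% interval −6.17 to −1.33, adjusted p = 0.0297), resting on 2 QGP-1 counts with vehicle and 15 with DOX. That call was lost without QGP-1 vehicle replicate 2 (−3.26) or 3 (−3.17), without QGP-1 DOX replicate 2 (−2.96) or 3 (−3.60), and without BON-1 vehicle replicate 1 (−3.80) or 2 (−3.60). For MUC5B the difference of −1.57 did not pass the test (95% interval −3.18 to 0.03, adjusted p = 0.179), and for MUC12 neither did −0.69 (95% interval −2.74 to 1.36, adjusted p = 0.698).

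Levels of different mucins can be set side by side only per length of transcript, for which the deposited TPM values were used. In QGP-1 cells with vehicle MUC13 (1.83 ± 0.218 TPM, SD, n = 3) stood first and MUC1 (1.42 ± 0.298 TPM) second, with ranges of 1.68 to 2.08 and 1.19 to 1.75 TPM that overlap, although MUC13 was above MUC1 within each of the 3 libraries. MUC20 followed at 0.0712 ± 0.00398 TPM, apart from both, and the other members lay below 0.01 TPM with ranges that overlapped their neighbours. In BON-1 cells with vehicle MUC13 (64.6 ± 11.9 TPM) was above MUC1 (10.7 ± 3.01 TPM) without overlap, and MUC5AC came next at 0.214 ± 0.0855 TPM. MUC5B followed at 0.108 ± 0.0275 TPM, and the ranges of MUC13, MUC1, MUC5AC and MUC5B did not overlap. MUC12, MUC20 and MUC2 came after them, between 0.0108 and 0.0785 TPM, and overlapped each other. With DOX the order began MUC13, MUC1 and MUC20 in QGP-1 cells and MUC13, MUC1 and MUC5AC in BON-1 cells.

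MUC13 made up 55.2% ± 2.01 (SD, n = 3) and MUC1 42.3% ± 2.20 of the summed mucin TPM in QGP-1 cells with vehicle. With DOX the shares were 68.8% ± 3.63 for MUC13, 23.0% ± 3.02 for MUC1 and 6.01% ± 0.460 for MUC20. In BON-1 cells MUC13 made up 85.3% ± 1.87 with vehicle and 97.9% ± 0.740 with DOX, and the share of MUC1 was 14.1% ± 1.85 and 1.85% ± 0.752. The share of MUC13 was higher in every DOX library than in every vehicle library of its line, although MUC13 itself was lower with DOX in QGP-1 cells, where MUC1 fell further. Calculated as CPM per kb of annotated exon its means were 56.9% and 65.9% in QGP-1 and 86.6% and 98.0% in BON-1 cells. As a share of the mucin counts, without length, MUC13 took 59.9% ± 1.13 with vehicle and 55.9% ± 6.33 with DOX in QGP-1 cells, a lower mean but with groups that overlapped. In BON-1 cells that share was 87.3% ± 1.44 with vehicle and 97.2% ± 0.432 with DOX. In CPM without length, the summed level of the 10 genes was 23.1 ± 1.57 with vehicle and 7.62 ± 0.957 with DOX in QGP-1 cells, and 213.6 ± 7.46 and 236.6 ± 17.5 in BON-1 cells (SD, n = 3). The summed level was lower with DOX in QGP-1 cells, with no overlap, and in BON-1 cells 206.3 to 221.2 CPM with vehicle lay below 224.5 to 256.6 CPM with DOX. As a percent of all counts, without TMM, the BON-1 groups overlapped, at 0.0218% to 0.0228% with vehicle and 0.0227% to 0.0256% with DOX. The lengths implied by the TPM values were 2.18 to 4.42 times the annotated exon length for MUC20, MUC2, MUC6 and MUC4 and 0.964 to 1.48 times for the other members, so the ranks of those genes depend on the annotation.

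**Figure D3:**
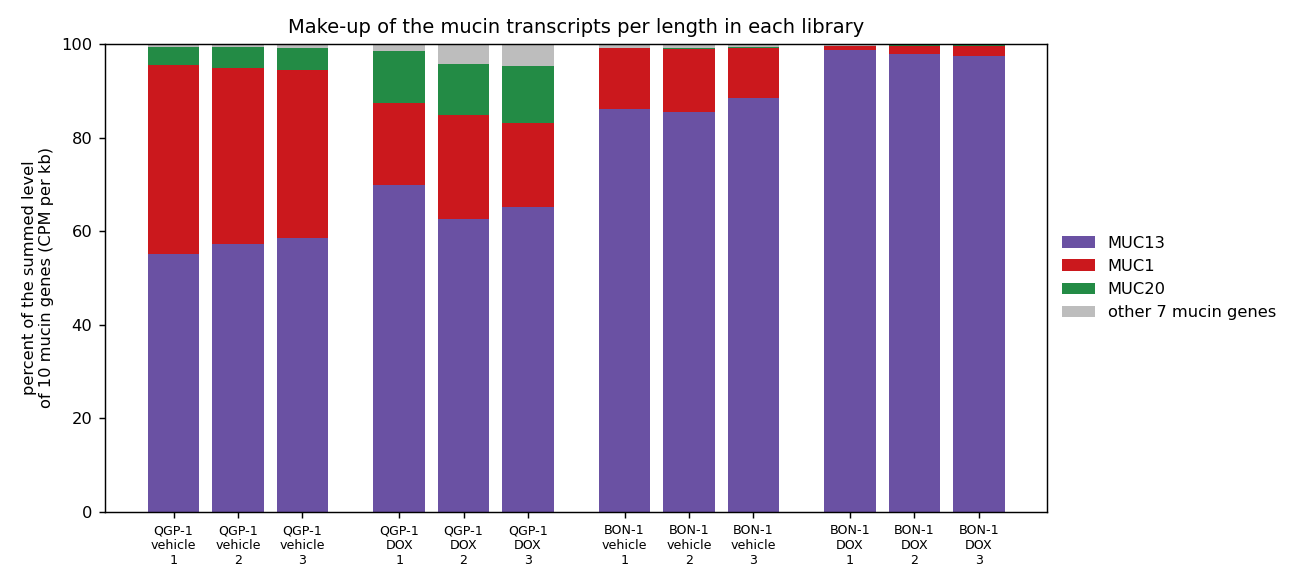
Share of MUC13, MUC1, MUC20 and the remaining mucin genes in the summed mucin level of each library, in percent of CPM per kb of annotated exon. MUC13 rose from means of 56.9% and 86.6% with vehicle to 65.9% and 98.0% with DOX in QGP-1 and BON-1 cells, and MUC1 shrank in each line.

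Other mucin genes were scored from a list of 14, of which 13 had a row and 4 were tested in each line. MUC3A, a membrane mucin of the intestine, was the member of that list lower with DOX in both lines. It measured 11.9, 10.4 and 9.75 CPM with vehicle and 4.67, 4.19 and 4.58 CPM with DOX in QGP-1 cells, and 10.3, 9.83 and 11.6 CPM against 4.09, 4.68 and 5.70 CPM in BON-1 cells. The groups did not overlap, and MUC3A fell by 1.25 on the log2 scale in QGP-1 (standard error 0.14, adjusted p = 1.84e-05, edgeR) and fell by 1.14 in BON-1 cells (adjusted p = 1.72e-05, standard error 0.18). Its level with vehicle did not differ detectably between the lines (95% interval of the log2 difference −0.33 to 0.30). The others called were CD164, a membrane sialomucin that was lower in QGP-1 cells, and OVGP1, the oviductal glycoprotein, which was higher in BON-1 cells. MUC15, a membrane mucin singled out after its values were seen, had 0 counts in each BON-1 library with vehicle and 11, 14 and 10 with DOX, which is at least 14.8-fold higher against a floor of 3 counts over the vehicle group. The exact 95% lower limit of the ratio, which also covers the counting error of the DOX libraries, was 11.4, and MUC15 had 0 counts in every QGP-1 library. It was not tested within the line, because the filter on low counts removed it.

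Mucin O-glycans are begun by the GalNAc transferases (GALNT enzymes), which attach the first sugar to serine or threonine. Of 20 such genes 13 were tested in QGP-1 cells, with 2 lower (GALNT12 and GALNT14) and 2 higher (GALNT10 and GALNTL6), beside 17.7% lower and 17.3% higher over all genes. In BON-1 cells 11 were tested, with 5 lower (GALNT2, GALNT12, GALNT13, GALNT14 and GALNT18) and 3 higher (GALNT1, GALNT3 and GALNT10), beside 18.3% and 17.0% over all genes. GALNT14 had 30.6, 31.1 and 30.5 CPM with vehicle and 17.7, 20.1 and 18.7 CPM with DOX in QGP-1 cells, and 3.07, 3.92 and 3.31 CPM against 0.434, 0.662 and 0.806 CPM in BON-1 cells, with no overlap in either line. It fell by 0.71 on the log2 scale in QGP-1 cells (adjusted p = 5.54e-05), where log2(TPM + 1) gave 0.02 beside a median of all genes of 0.59. In BON-1 cells GALNT14 fell by 2.42 (adjusted p = 5.73e-06), a difference of −1.69 between the lines (95% interval −2.24 to −1.14, adjusted p = 8.56e-05, interaction in edgeR). GALNT10 rose in both, by 0.39 and 0.61 (adjusted p = 0.00384 and 1.10e-05). GALNT12 was called lower, at −0.39 in QGP-1 (adjusted p = 0.0311, but 0.22 on log2(TPM + 1)) and at −0.50 in BON-1 cells (adjusted p = 0.0116). The call in QGP-1 cells was not made without vehicle replicate 2 (−0.32), DOX replicate 1 (−0.31) or DOX replicate 2 (−0.40), and its BON-1 call without vehicle replicate 1 (−0.35).

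Enzymes that extend the O-glycan numbered 15, and 10 were tested in each line. In QGP-1 cells 5 were lower (B3GNT3, C1GALT1, C1GALT1C1, FUT2 and ST3GAL4) and 0 higher, beside 17.7% lower and 17.3% higher over all genes. In BON-1 cells 2 were lower (C1GALT1C1 and GCNT1) and 2 higher (GCNT3 and ST3GAL1), beside 18.3% and 17.0% over all genes. The member lower in both was C1GALT1C1, the chaperone (COSMC) that core 1 synthase needs. It had 94.95, 91.2 and 113.6 CPM with vehicle and 58.2, 58.4 and 65.1 CPM with DOX in QGP-1 cells, and 51.4, 49.5 and 52.7 CPM against 40.9, 32.9 and 39.8 CPM in BON-1 cells. The groups were apart in each line, with log2 fold changes of −0.72 on the counts and 0.02 on log2(TPM + 1) in QGP-1 cells (adjusted p = 4.57e-05, edgeR) and −0.45 in BON-1 cells (adjusted p = 0.000616). B3GNT3, which extends core 1, fell by 1.11 in QGP-1 cells (adjusted p = 0.000645) and was at 0.01 in BON-1 cells (adjusted p = 0.928), a difference of 1.14 (adjusted p = 3.25e-05, interaction). ST3GAL1, which caps core 1 with sialic acid, rose by 0.76 in BON-1 cells (adjusted p = 2.70e-07) and was at 0.16 in QGP-1 cells (adjusted p = 0.540).

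Of 18 genes that work with secreted mucins in mucus, 9 were tested in QGP-1 cells, with 3 lower (CREB3L1, TFF1 and TFF3) and 1 higher (DMBT1). Over all genes 17.7% were lower and 17.3% higher there. In BON-1 cells 10 were tested, with 3 lower (FCGBP, SPINK4 and TFF3) and 3 higher (AGR3, CREB3L1 and KLF4), beside 18.3% and 17.0% over all genes. TFF3, a trefoil peptide secreted with MUC2, was called lower in both lines, at −0.32 (adjusted p = 0.0375, edgeR) and −0.47 (adjusted p = 0.00404). TFF3 is also on a list that the study drew from these libraries, so that list is not independent evidence of its direction. Its QGP-1 value was 0.39 on log2(TPM + 1), and the call was lost without vehicle replicate 1 (−0.27) or 3 (−0.32), without DOX replicate 1 (−0.20) or 2 (−0.33), with library size in place of TMM (adjusted p = 0.0588) and with both lines in 1 fit (adjusted p = 0.0647). CREB3L1, a transcription factor of secretory cells, was called in opposite directions. It had 10.5, 11.7 and 7.63 CPM with vehicle and 4.74, 3.38 and 3.26 CPM with DOX in QGP-1 cells (log2 fold change −1.38, adjusted p = 0.000106). In BON-1 cells it had 180.3, 156.4 and 159.5 CPM with vehicle and 198.8, 196.3 and 208.3 CPM with DOX (log2 fold change 0.27, adjusted p = 0.00582, but −0.09 on log2(TPM + 1) and not called without vehicle replicate 2, at 0.23, or with both lines in 1 fit, at an adjusted p of 0.0557). The responses differed by 1.65 (95% interval 1.28 to 2.02, adjusted p = 6.72e-07, interaction in edgeR). FCGBP, a protein bound to MUC2 in mucus, had 3.55, 4.14 and 3.74 CPM in BON-1 cells with vehicle and 0.867, 1.07 and 1.01 CPM with DOX, and fell by 1.95 on the log2 scale (adjusted p = 1.67e-05).

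Proteins that bind or phosphorylate the MUC1-C tail, or signal beside it, were represented by 28 genes. In QGP-1 cells 28 were tested, with 5 lower (CTNNB1, ERBB3, IKBKB, JUP and PRKCD) and 12 higher, beside 17.7% lower and 17.3% higher over all genes. In BON-1 cells 27 were tested, with 7 lower and 7 higher, beside 18.3% and 17.0% over all genes. In both lines 2 were lower (CTNNB1 and PRKCD) and 5 higher (APC, GSK3B, MET, MYC and SOS1). MYC was at 0.24 in QGP-1 (adjusted p = 0.0446, edgeR) and 0.30 in BON-1 cells (adjusted p = 0.00657). The paper reports the other direction for MYC in both lines, by qRT-PCR of the transcript and by immunoblot. The source of this difference was not tested. PRKCD, a kinase of MUC1-C, was called lower, at −0.54 in QGP-1 cells (adjusted p = 0.0342, not called without vehicle replicate 1, at −0.38, or DOX replicate 1, at −0.38) and at −0.70 in BON-1 cells (adjusted p = 0.000100). APC, which binds beta-catenin, rose by 0.54 and 0.62 (adjusted p = 2.11e-05 and 4.51e-07), and SOS1, an exchange factor of RAS, by 0.38 and 0.43 (adjusted p = 0.000391 and 0.000107). FGFR3, a receptor tyrosine kinase, measured 12.4, 15.3 and 11.4 CPM in BON-1 cells with vehicle and 7.80, 8.35 and 5.64 CPM with DOX. The groups did not overlap, and FGFR3 fell by 0.86 on the log2 scale there (standard error 0.17, adjusted p = 0.000315, edgeR).

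ERBB2, ERBB3 and STAT3 were called in opposite directions in the lines, and several of these calls were lost without 1 library. ERBB2 was at 0.60 in QGP-1 (adjusted p = 0.0390) and −0.58 in BON-1 cells (adjusted p = 0.0173), ERBB3 at −0.31 and 0.19 (adjusted p = 0.00473 and 0.0430), and STAT3 at 0.24 and −0.21 (adjusted p = 0.0156 and 0.0423). On log2(TPM + 1) ERBB3 turned to 0.37 in QGP-1 and −0.17 in BON-1 cells. The ERBB2 calls were lost in QGP-1 cells without vehicle replicate 1 or 3 or DOX replicate 1 or 3 (0.47 to 0.62) and in BON-1 cells without vehicle replicate 2 or DOX replicate 1 (−0.50 and −0.53). The ERBB3 call in BON-1 cells was made in 1 of 6 fits that left out a library, namely without vehicle replicate 1, and the others gave 0.15 to 0.20. It was also lost without a filter, with a minimum of 10 counts and with library size as the only scaling (adjusted p = 0.103, 0.0523 and 0.0990). The STAT3 call was lost in QGP-1 cells without vehicle replicate 2 or 3 (0.25 and 0.19) and in BON-1 cells without vehicle replicate 1 or 2 or DOX replicate 1 or 3 (−0.24 to −0.13). In BON-1 cells DESeq2, RLE factors and both lines in 1 fit did not call it either (adjusted p = 0.0505, 0.0580 and 0.0644).

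Enzymes that cut the MUC1 ectodomain or process its stub numbered 10. Of 9 tested in QGP-1 cells 1 was lower (ADAM9) and 3 were higher (ADAM10, ADAM17 and APH1B), beside 17.7% lower and 17.3% higher over all genes. Of 10 in BON-1 cells 1 was lower (MMP14) and 2 were higher (APH1B and NCSTN), beside 18.3% and 17.0% over all genes. APH1B, a subunit of gamma-secretase, was higher in both, by 0.26 (adjusted p = 0.0172) and 0.61 (adjusted p = 8.09e-06, edgeR). The call in QGP-1 cells was not made without vehicle replicate 1 (0.26) or 2 (0.22) or DOX replicate 3 (0.22). ADAM10, a sheddase, rose by 0.47 in QGP-1 cells (adjusted p = 0.000114) and was at 0.12 in BON-1 cells (adjusted p = 0.221), and MMP14, a membrane metalloprotease, fell by 0.76 in BON-1 cells (adjusted p = 7.85e-06).

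The calls of these lists in BON-1 cells rest on the counts. On log2(TPM + 1), 17 of the calls given for genes named by rule could be tested in BON-1 cells, and 1 was made, 14 were lost with the direction the same (adjusted p = 0.0818 to 0.923, limma) and 2 turned in sign. The 14 were GALNT10, GALNT12, C1GALT1C1, ST3GAL1, TFF3, PRKCD, APC, SOS1, ERBB2, STAT3, FGFR3, APH1B, MMP14 and FAM189B. In QGP-1 cells 14 could be tested, of which 7 were made and 7 turned in sign. Those 7 were GALNT14, GALNT12, C1GALT1C1, TFF3, ERBB3, FAM189B and SLC50A1, at 0.02 to 0.39. Each lay below the median of all genes on that scale, which was 0.59 in QGP-1 cells. In BON-1 cells that median was −0.31, and CREB3L1 (−0.09) and ERBB3 (−0.17), which turned there, lay above it.

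**Figure D4:**
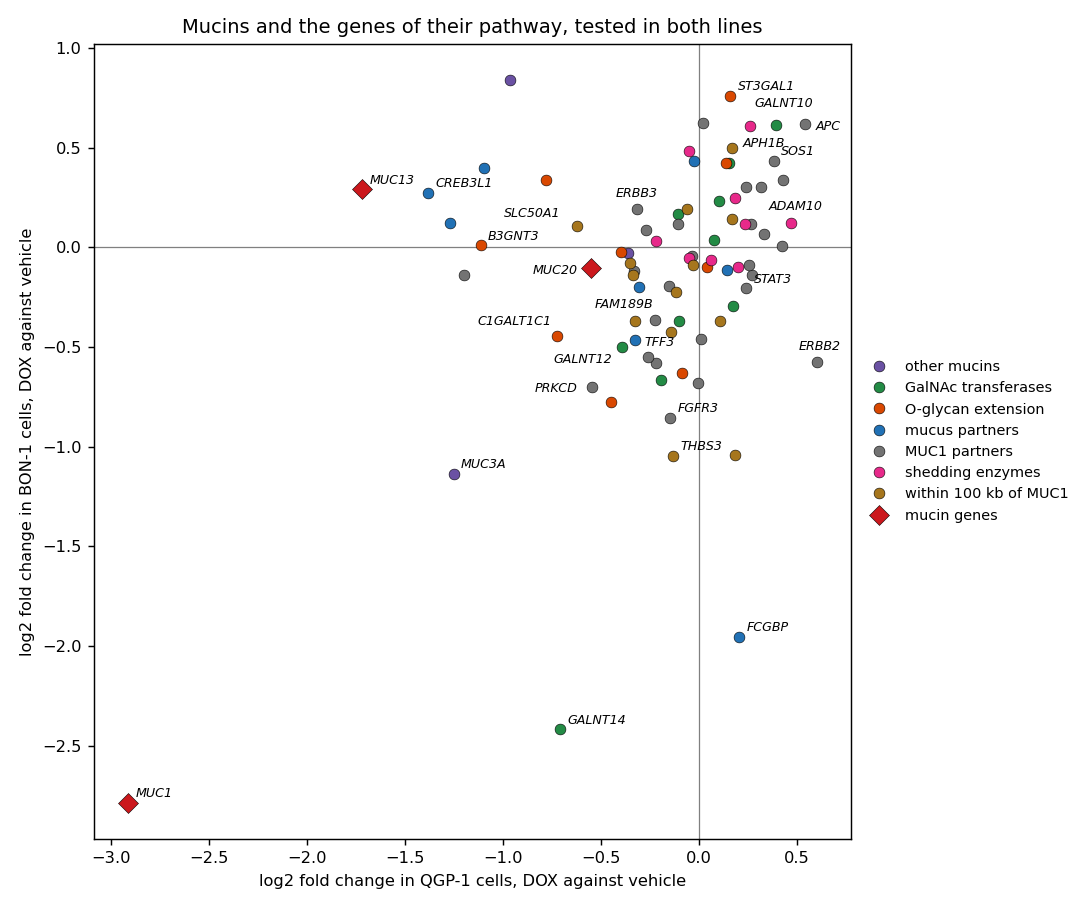
Log2 fold change of DOX against vehicle in QGP-1 (horizontal) and BON-1 cells (vertical) for genes of the lists tested in both lines, with MUC1, MUC13 and MUC20 as diamonds and named genes labelled. MUC1 stands at −2.91 and −2.79, MUC3A and GALNT14 are negative on both axes, and MUC13 and CREB3L1 lie to the left of and above 0.

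Around the MUC1 gene itself, 15 genes annotated within 100 kb had a row and 13 were tested in each line. Of these, 4 were lower in QGP-1 cells (FAM189B, KRTCAP2, MTX1 and SLC50A1), 3 were lower in BON-1 cells (CLK2, FAM189B and THBS3), and 0 were higher in either. Over all genes tested, 17.7% were lower and 17.3% higher in QGP-1 cells, and 18.3% and 17.0% in BON-1 cells. FAM189B was called lower in both, at −0.33 (adjusted p = 0.0236, 0.29 on log2(TPM + 1)) and −0.37 (adjusted p = 0.0129, edgeR). The call in QGP-1 cells was not made without vehicle replicate 1 or 2 or DOX replicate 1 or 3 (−0.34 to −0.24), and its BON-1 call without vehicle replicate 1 (−0.30). The nearest of the genes called, THBS3, lies 2.67 kb from MUC1 and fell by 1.05 in BON-1 cells (adjusted p = 2.45e-07) but was at −0.13 in QGP-1 cells (adjusted p = 0.594), while SLC50A1, a sugar transporter, was lower in QGP-1 cells alone, at −0.62 (adjusted p = 2.07e-05, 0.11 on log2(TPM + 1)), beside 0.11 in BON-1 cells (adjusted p = 0.365). Both differed between the lines by the interaction test (THBS3 −0.90, adjusted p = 0.00348, and SLC50A1 0.74, adjusted p = 3.37e-05).

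By Pearson correlation of log2 CPM with MUC1 over the 12 libraries, the genes most like it were CIB1 (0.976), FANCI (0.9748), OSBPL8 (0.971), FAM46C (0.969) and FAM49B (0.959). Each was lower with DOX than with vehicle by its group means in both lines and higher in BON-1 than in QGP-1 cells with vehicle. CIB1, for example, averaged 17.2 CPM with vehicle and 6.77 CPM with DOX in QGP-1 cells and 22.0 and 10.2 CPM in BON-1 cells. Among other mucins MUC3A, which is outside the 10 genes, had a correlation of 0.88, and the members had correlations of 0.65 for MUC5B, 0.57 for MUC13, 0.50 for MUC12, 0.48 for MUC2, 0.45 for MUC5AC and −0.29 for MUC20. These values describe 12 libraries that share their line and treatment and carry no test.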

How the data were processed

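RNA was sequenced by the authors from 12 libraries in 4 groups of 3. Per the paper's methods, total RNA was purified with the RNeasy Plus kit, TruSeq Stranded mRNA libraries were made, and reads were aligned with STAR to GRCh38. The counter, its strand setting and its treatment of reads with several matches are not given in the sources used here. The authors deposited, for each line, raw counts per gene without normalization (whole numbers, 28008 genes) and TPM values, which leave out 2468 genes for QGP-1 and 2464 for BON-1 cells. The noncoding RNAs RN7SK, RN7SL1 and RN7SL2 make up 50.9% to 80.3% of the deposited TPM of a library, so a TPM moves with them, and log2(TPM + 1) shifts the median of all genes to 0.59 in QGP-1 and −0.31 in BON-1 cells. Of the columns of values per sample, 0 were left unused.

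Tests were run on the raw counts with edgeR 4.0.16 under R 4.3.3 (default filter on low counts, TMM, quasi-likelihood F test, Benjamini-Hochberg over all genes, adjusted p below 0.05, no minimum fold). DOX was compared with vehicle within each line from its 6 libraries, and levels between the lines and the interaction of line and DOX were tested in 1 fit of 12 libraries and 4 group means. A standard error is the size of the log2 fold change divided by the root of F. Levels in CPM use the TMM factors of the 12 libraries. Replicates are triplicate cultures by the paper's methods and biologic triplicates by its figure legend. The p-values set the difference between groups against the spread between these replicates. The depth, 15981954 to 50525926 counts a library, leaves mucins other than MUC1 and MUC13 limited by counting error. No libraries of the same group were copies of each other, since they differed beyond sampling noise (chi-square per gene 5.72 to 28.2). Pairs from different groups were not checked in this way. Gene positions and exon lengths are from GENCODE on GRCh38. The code was tested on simulated data.

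The 10 genes and the lists were chosen with earlier results of these data known. The genes named are the 10 members, and from each list the 3 with the largest mean change among those called in the same direction in both lines, all called in opposite directions, the largest call of each line, and the 5 genes most like MUC1 by correlation. Other genes are named to fill out counts, or in the case of MYC to set its values beside the paper's, after their values were seen. A few genes of the marker and partner lists are not reported here and were taken out of those lists. Older symbols were matched through RefSeq synonyms. The alternatives were DESeq2 1.42.0, library size or RLE factors in place of TMM, no filter, a minimum of 10 counts, a fit of both lines together, a block for the replicate number, limma 3.58.1 on log2(TPM + 1) where the mean TPM reached 1, CPM per kb in place of TPM, and leaving out each library.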

Additional observations from a re-analysis of the deposited data

Results flagged for a closer look

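The response to DOX differed between QGP-1 and BON-1 cells by the interaction test of edgeR (adjusted p below 0.05) for 26 of the genes named, given here as BON-1 minus QGP-1 on the log2 scale. Over all 16598 genes tested, 7.92% were called more negative and 8.80% more positive in BON-1 cells. Genes were named in part for opposite calls or the largest call of a line, so the count of 26 is no rate to set beside those shares. Among the mucins called were MUC13 (2.02), MUC2 (−4.65) and MUC5AC (−3.75), of which MUC13 and MUC2 were called in all 12 fits that left out a library and MUC5AC in 6 of 12. MUC2 and MUC5AC were low in counts in QGP-1 cells, and the report gives those counts. MUC2 passed the filter only through the BON-1 libraries with vehicle, its highest group, so its calls are not independent of the filter.

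GALNT14 differed by −1.69, B3GNT3 by 1.14 and ST3GAL1 by 0.61 among the glycan enzymes, and CREB3L1 by 1.65 and FCGBP by −2.14 among the mucus genes. FCGBP had 3 to 17 counts in each QGP-1 library, and its difference was called in 1 of the 12 fits without a library. The fits without a library called ST3GAL1 in 6 of 12.

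Among genes around MUC1-C the values were −1.17 for ERBB2, 0.52 for ERBB3 and −0.44 for STAT3. APH1B (0.36) and ADAM10 (−0.34) differed among the shedding enzymes, and SLC50A1 (0.74) and THBS3 (−0.90) among the neighbours of MUC1. The difference of APH1B was lost with library size in place of TMM, at 0.29, and with no filter, at 0.33, and was called in 2 of the 12 fits without a library, and that of ADAM10 in 8 of 12.

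Genes named only to fill out counts or marker lists also differed. These were TFF1 (1.40), KLF4 (0.47), OVGP1 (1.81), CD164 (0.34), GALNT2 (−0.46), C1GALT1 (0.39), GCNT1 (−0.54), CTNNB1 (−0.36), NCSTN (0.54) and the neuroendocrine markers CHGA (−1.60) and SYP (−0.51). KLF4 and CD164 were each called in 3 of the 12 fits without a library and lost their calls with library size in place of TMM (0.40 and 0.27), and KLF4 also with no filter (0.44) and with the replicate block (0.47).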

How the results depend on the processing

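The fall of MUC1 kept its direction and call under every alternative that tested it and in each fit without 1 library, where it ranged from −3.09 to −2.79 in QGP-1 and from −3.19 to −2.53 in BON-1 cells. On log2(TPM + 1) the number of mucin genes called was 1 in each line, against 2 and 4 on the counts: MUC1 in QGP-1 cells, MUC5AC and MUC5B were below a mean TPM of 1 and were not tested, and MUC13 in BON-1 cells was tested and not called. Without 1 library it was 2 to 2 in QGP-1 and 4 to 5 in BON-1 cells, 7 to 7 between the lines and 2 to 3 for the interaction. On log2(TPM + 1) the sign turned for MUC13 (−0.073) and CREB3L1 (−0.088) in BON-1 cells, for ERBB3 in both (0.37 in QGP-1, −0.17 in BON-1), and in QGP-1 cells for GALNT14 (0.024), GALNT12 (0.22), C1GALT1C1 (0.021), TFF3 (0.39), FAM189B (0.29) and SLC50A1 (0.11), and 14 further calls in BON-1 cells, named in the report, were lost; the medians of all genes were 0.59 in QGP-1 and −0.31 in BON-1 cells. Without 1 library the sign turned for uncalled values of the MUC1 interaction (−0.28 to 0.38), MUC20 in BON-1 cells (−0.50 to 0.27) and MUC5B in QGP-1 cells (−0.034 to 0.50); the cause was not tested.

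Same-numbered vehicle and DOX libraries had correlations of −0.0393 to 0.0667, and differently numbered ones −0.133 to 0.0887. These values gave no sign that the numbers pair the samples, but they cannot exclude that replicates were cultured or handled in pairs. With the replicate number as a block, 2 mucin genes in QGP-1 and 4 in BON-1 cells were called, as without it, MUC1 was at −2.91 and −2.81, and PRKCD and ERBB2 in QGP-1 (adjusted p = 0.0664 and 0.0677) and ERBB3 and STAT3 in BON-1 cells (adjusted p = 0.0693 and 0.0566) lost their calls. Depth limits the mucins with fewer than about 10 counts a library, for which only large differences could be seen.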
